A study of Homo sapiens with 4 samples.

Results

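Semaphorins, ephrins, netrins and Slits are guidance cues, and with their receptors they make up the group of genes described here. Its members are all genes of the count table whose symbol begins with SEMA, PLXN, EPHA, EPHB, EFNA, EFNB, ROBO or UNC5, together with NRP1, NRP2, the Slit genes SLIT1, SLIT2 and SLIT3 and the netrin genes NTN1 and NTN4. The rule found 53 of the 12912 genes in the table, of which 28 encode ligands and 23 encode receptors. The remaining 2, UNC50 and UNC5CL, share only the beginning of their symbol with the netrin receptors. SLIT1 and SLIT3 were not in the table. Other genes of these families were absent from it too, among them SEMA3D, SEMA3G, ROBO2 and UNC5D. Counts by class below therefore cover only the genes in the table and not whole families.

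The cells were 786-O, a clear cell renal carcinoma line without functional VHL, and the comparison asked how RNA levels differ once VHL is put back. 786-O-Ctrl (genotype VHL-null) was compared with 786-O-VHL (genotype VHL restoration), in which HA-tagged VHL is expressed from a retroviral vector, with 2 libraries in each group. The labels name triple-reporter derivatives of both, so every library comes from cells that also carry a fusion of thymidine kinase, GFP and luciferase. All were grown in RPMI1640 with serum and antibiotics. Each group is 1 subline, and nothing in the labels says that its libraries came from separate cultures, so p-values measure the spread between libraries, which may be technical, and a difference between sublines other than VHL cannot be told apart from VHL. A permutation of 2 against 2 libraries cannot give a two-sided p below 0.333, and the tests therefore come from a model fitted over all genes.

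Of the 786-O-Ctrl libraries, the deeper held 22141263 counts and the shallower 15714166, while 786-O-VHL replicate 1 held 2807779 and replicate 2 held 16114120. Levels are given as CPM, counts scaled by library total and TMM factor, and 3 counts, the limit that a count of 0 allows, were worth 1.02 CPM in 786-O-VHL replicate 1 and between 0.142 and 0.199 CPM in the other libraries. VHL itself read 42.9 and 43.9 CPM in 786-O-Ctrl against 178 and 163 CPM in 786-O-VHL (log2 fold change 1.96 ± 0.0706, SE, edgeR FDR 2.865e-19). Of 10 markers of the renal epithelial origin of 786-O all were in the table, among them PAX8 at 277 and 272 CPM in 786-O-Ctrl against 166 and 137 CPM in 786-O-VHL. In 786-O-VHL 6 of the 10 were lower and 1 higher (all genes: 31.9% lower, 32.6% higher). The largest fall was that of MME, from 33.2 and 36.6 CPM to 1.70 and 1.66 CPM (log2 fold change -4.38). CA9 was rare, with 25 and 18 counts in 786-O-Ctrl against 2 and 8 in 786-O-VHL, and was not called. Endothelial markers summed to between 0.6785 and 1.329 CPM in a library, with CDH5, VWF, CLDN5 and EMCN not in the table. Leukocyte markers summed to between 0.06646 and 1.018 CPM. The 5 fibroblast and mural markers in the table summed to 23.2 and 23.7 CPM in 786-O-Ctrl against 29.2 and 30.5 CPM in 786-O-VHL, with PDGFRB and RGS5 called higher (log2 fold changes 0.70 and 0.73), 0 called lower and DCN and PDGFRA not in the table. Of the 3 neuronal markers in the table, SYT1 was higher (log2 fold change 2.92) and RBFOX3 and SNAP25 were lower (-1.38 and -0.68), and their sum was 13.7 and 13.5 CPM in 786-O-Ctrl against 23.8 and 23.4 CPM in 786-O-VHL. STMN2, GAP43 and ELAVL4 were not in the table. The part of these genes in the results below was not tested.

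Guidance cues were named for steering growing axons, and the same molecules act on vessels, epithelia and tumor cells. Semaphorins signal through plexins, and the secreted class 3 semaphorins mostly need a neuropilin as coreceptor. Ephrins are membrane-bound ligands of the Eph receptor tyrosine kinases, netrins act through DCC, neogenin and the UNC5 receptors, and Slits act through Robo receptors. VHL is the substrate receptor of a ubiquitin ligase that targets HIF alpha subunits for degradation, and HIF binds DNA at elements with the core ACGTG or GCGTG.

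Of the 52 members that could be tested, 37 changed at FDR < 0.05, which is 71.2% against 64.5% of all 12335 genes tested. They were split about evenly, with 19 higher in 786-O-VHL (36.5% against 32.6% of all genes) and 18 lower (34.6% against 31.9%). More than 2-fold changes were found for 17 members, or 32.7% against 17.5% of all genes, with 9 higher (17.3% against 10.0%) and 8 lower (15.4% against 7.52%). Past 4-fold at FDR < 0.01 there were 7 members, or 13.5% against 4.46%, namely 5 higher (9.62% against 2.92%; EFNB3, UNC5A, UNC5CL, UNC5B and NTN4) and 2 lower (3.85% against 1.54%; SEMA6A and ROBO4). EFNB3, with 0 and 1 counts in 786-O-Ctrl, passed the filter on low counts only through its 786-O-VHL libraries. ROBO4, with 1 and 9 counts in 786-O-VHL, passed it only through its 786-O-Ctrl libraries. Both were thus testable only because of the group where they are high. The libraries of both groups did not overlap for 39 members (75.0% against 80.0% of all genes), 19 of them with 786-O-VHL above (36.5% against 40.8%) and 20 with 786-O-VHL below (38.5% against 39.2%). The median log2 fold change of the members was -0.0221 (0.0168 for all genes), and the median of its absolute value was 0.699 (0.428 for all genes). The share of a library's counts that fell on the members ranged from 0.4643% to 0.5039%. The counts called within each class below stand beside the same shares of all genes, 32.6% called higher and 31.9% called lower, and with at most 13 members a class was not tested against them. The guidance genes as a group thus took a like share of the counts in both sublines, while their individual levels moved in both directions.

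**Figure D1:**
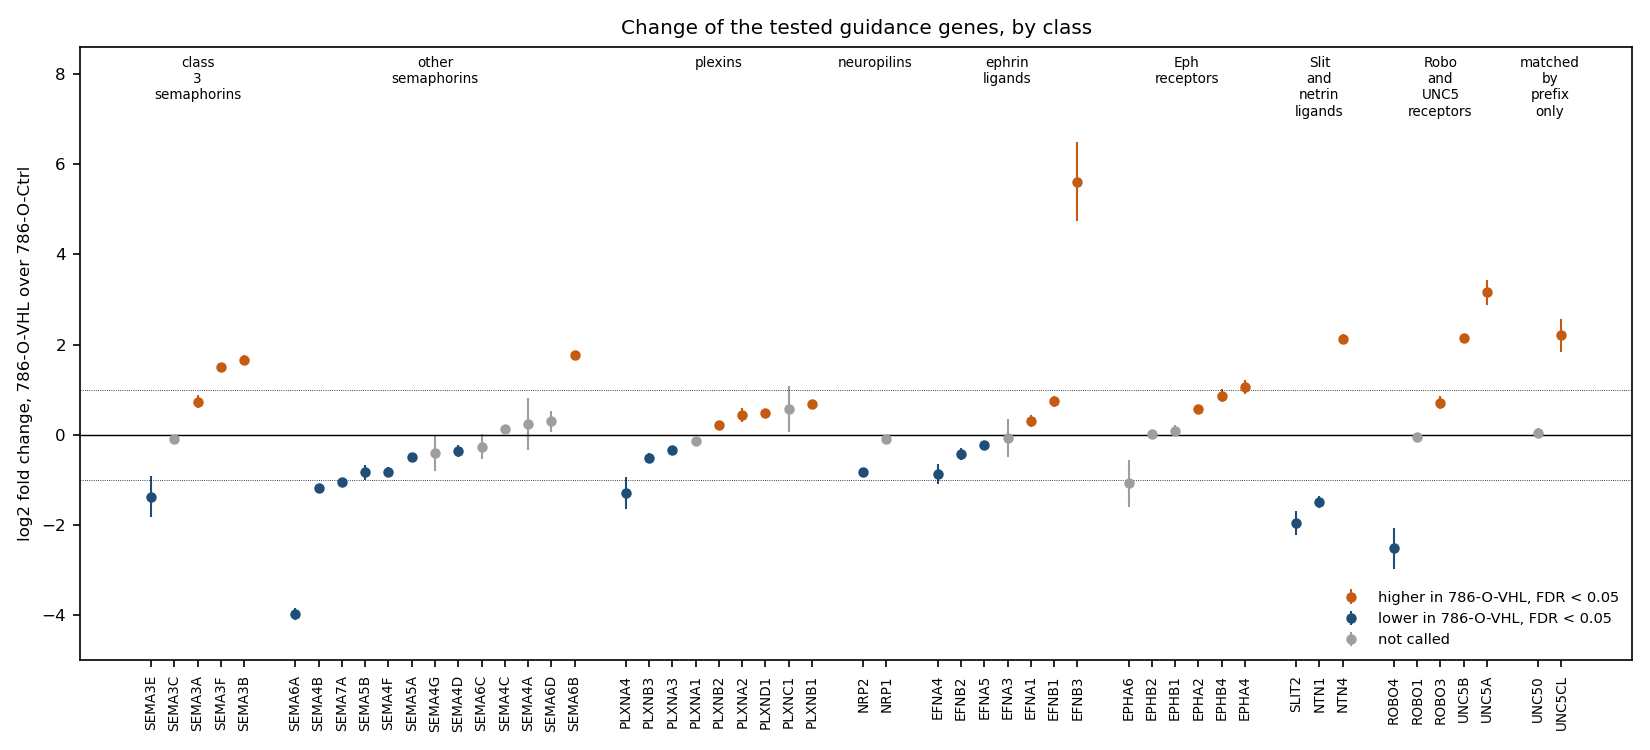
Log2 fold change of the 52 tested guidance genes in 786-O-VHL over 786-O-Ctrl (vertical axis), grouped by class and ordered within it; points are estimates from 2 libraries per group, bars are ± 1 SE, colors mark the call at FDR < 0.05 and dotted lines mark 2-fold. SEMA6A at -3.97 is the lowest point, and EFNB3, whose fitted value of 5.62 rests on 1 count in 786-O-Ctrl, is the highest.

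Promoter sequences of 250 bases before to 50 bases after a transcript start were available from RefSeq (GRCh38.p14, a later build than the GRCh37 coordinates given for genes below) for 46 of the 53 members, as 74 windows. There was no entry for SEMA3A, SEMA6A, SEMA6B, NRP1, EFNB3, NTN1 and UNC5B. The letters ACGTG, on either strand, were found in 16.2% of the 74 windows against 21.4% of all 35116 windows, and GCGTG in 40.5% against 36.5%. Either was found in 51.4% against 48.4%, and matches of the 2 words, or of 1 word on both strands, can overlap. Of the 7 members past 4-fold, 4 had an entry (NTN4, ROBO4, UNC5A and UNC5CL), and their 5 windows held 0 matches in the 250 bases before the start. The window of UNC5A counts among those with GCGTG all the same, since it holds 2 matches in the 50 bases after the start, which are not shown. The windows of ROBO4, which fell, and UNC5A, which rose, are shown first because both changed past 4-fold. The other 4, of EPHA2 and EFNB1, which rose, and SLIT2 and PLXNA4, which fell, were chosen after the matches were seen, as the named members with a single window and a match before the start. Each is written 5′ to 3′ in the direction of the gene and ends at the base before the start, with matches to either word on either strand in capitals. They lie at chr11:124897866-124898115, minus strand (ROBO4), chr5:176810309-176810558, plus strand (UNC5A), chr1:16156070-16156319, minus strand (EPHA2), chrX:68828771-68829020, plus strand (EFNB1), chr4:20251655-20251904, plus strand (SLIT2) and chr7:132576471-132576720, minus strand (PLXNA4).
ROBO4: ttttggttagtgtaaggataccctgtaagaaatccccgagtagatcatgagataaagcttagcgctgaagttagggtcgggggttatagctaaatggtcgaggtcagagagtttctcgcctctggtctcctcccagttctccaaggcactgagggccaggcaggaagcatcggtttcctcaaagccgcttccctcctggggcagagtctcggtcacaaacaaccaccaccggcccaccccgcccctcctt
UNC5A: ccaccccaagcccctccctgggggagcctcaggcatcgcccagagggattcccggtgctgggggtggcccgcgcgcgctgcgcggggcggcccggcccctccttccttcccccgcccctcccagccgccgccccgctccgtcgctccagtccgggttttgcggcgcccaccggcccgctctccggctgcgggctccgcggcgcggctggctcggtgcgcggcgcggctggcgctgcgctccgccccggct
EPHA2: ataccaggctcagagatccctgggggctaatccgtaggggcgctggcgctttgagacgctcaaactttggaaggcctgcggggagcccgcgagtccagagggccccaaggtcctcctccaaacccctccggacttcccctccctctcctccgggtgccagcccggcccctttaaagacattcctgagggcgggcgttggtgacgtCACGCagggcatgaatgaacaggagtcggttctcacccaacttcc
EFNB1: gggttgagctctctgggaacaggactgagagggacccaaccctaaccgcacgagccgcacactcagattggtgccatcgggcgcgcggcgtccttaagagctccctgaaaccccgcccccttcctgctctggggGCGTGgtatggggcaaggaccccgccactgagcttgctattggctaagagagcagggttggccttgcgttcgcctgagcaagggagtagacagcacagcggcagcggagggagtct
SLIT2: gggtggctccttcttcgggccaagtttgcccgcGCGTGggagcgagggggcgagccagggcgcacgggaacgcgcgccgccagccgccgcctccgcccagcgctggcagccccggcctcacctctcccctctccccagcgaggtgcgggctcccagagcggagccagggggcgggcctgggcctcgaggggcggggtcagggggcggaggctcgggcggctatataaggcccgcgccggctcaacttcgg
PLXNA4: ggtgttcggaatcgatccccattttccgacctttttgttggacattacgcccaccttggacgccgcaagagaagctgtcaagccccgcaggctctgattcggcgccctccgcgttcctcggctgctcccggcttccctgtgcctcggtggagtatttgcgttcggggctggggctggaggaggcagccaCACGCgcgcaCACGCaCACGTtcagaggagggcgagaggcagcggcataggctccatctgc

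The core letters thus stand before the start of members that rose and of members that fell, and are missing there in others. A match is a run of letters only, and binding was not measured in these libraries.

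Of the 7 members past 4-fold, NTN4, UNC5A and UNC5B encode a netrin and netrin receptors, a grouping that joins genes of different classes and was not tested. NTN4, a netrin of basement membranes that binds laminins (chr12:96051583-96184967, minus strand, GRCh37), read 19.1 and 21.7 CPM in 786-O-Ctrl against 76.7 and 94.3 CPM in 786-O-VHL. Its level was thus 4.39-fold higher with VHL, with a log2 fold change of 2.14 ± 0.0949 (edgeR FDR 2.77e-17). That value was 1.91 without 786-O-VHL replicate 2 and 1.765 with libraries thinned to the shallowest, both below 4-fold. NTN1, the classical secreted netrin (chr17:8924827-9147317, plus strand), went the other way, from 31.1 and 29.6 CPM to 8.14 and 11.5 CPM. The log2 fold change was -1.48 ± 0.135 (FDR 1.408e-10), and no library of one group reached the other for either gene. Per kb of exon the 2 genes had nearly the same mean level in 786-O-Ctrl, 4.73 and 4.68 CPM per kb. In 786-O-VHL the means were 1.53 CPM per kb for NTN1 and 19.6 for NTN4.

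The netrin receptors UNC5A and UNC5B rose with VHL. UNC5B (chr10:72972327-73062621, plus strand), a dependence receptor that is also known from endothelium, read 15.8 and 16.4 CPM in 786-O-Ctrl against 67.9 and 72.3 CPM in 786-O-VHL (log2 fold change 2.14 ± 0.0953, FDR 2.772e-17). UNC5A (chr5:176237520-176307899, plus strand) was far lower, at 1.24 and 1.06 CPM against 8.14 and 11.2 CPM (log2 fold change 3.16 ± 0.271, FDR 4.594e-11), which came from 26 and 16 counts in 786-O-Ctrl against 24 and 189 in 786-O-VHL. Both 786-O-VHL libraries stood above both 786-O-Ctrl libraries for each receptor. HK3 overlaps UNC5A and UNC5B-AS1 overlaps UNC5B on the opposite strand, and neither was in the table. UNC5C was close to undetected, with 2 counts in each 786-O-Ctrl library and 1 and 13 in 786-O-VHL. It did not pass the filter on low counts, and the ratio of its pooled CPM was 6.39 with a 95% exact interval of 2.01 to 26.6, which covers counting error only. UNC5CL, a signaling protein that is not a guidance receptor (chr6:40994634-41006960, minus strand), read 1.05 and 1.196 CPM in 786-O-Ctrl against 8.82 and 4.04 CPM in 786-O-VHL (log2 fold change 2.21 ± 0.367, FDR 6.658e-06). It overlaps OARD1 on the same strand, which was itself higher in 786-O-VHL (log2 fold change 0.66, FDR 6.892e-06), so reads of the 2 genes may be shared. The log2 fold change of UNC5CL was 2.97 without 786-O-VHL replicate 2 and 1.86, below 4-fold, without replicate 1. UNC50 did not pass the test (log2 fold change 0.03).

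SLIT2 and ROBO4 fell, and both are rare in these cells. SLIT2, the secreted ligand of Robo receptors (chr4:20253528-20622184, plus strand), read 8.595 and 7.24 CPM in 786-O-Ctrl against 1.36 and 2.20 CPM in 786-O-VHL (log2 fold change -1.95 ± 0.268, FDR 3.294e-07), with 4 and 37 counts behind the last 2 values. Without 786-O-VHL replicate 2 it was -2.56, past 4-fold. ROBO4, a Robo receptor best known from endothelium (chr11:124753587-124768396, minus strand), had 61 and 44 counts in 786-O-Ctrl against 1 and 9 in 786-O-VHL. These are 2.90 and 2.92 CPM against 0.339 and 0.535 CPM, a log2 fold change of -2.51 ± 0.457 (FDR 2.41e-05), and the value of 786-O-VHL replicate 1 is below its limit of 1.02 CPM. Without 786-O-VHL replicate 2 the FDR of ROBO4 was 0.01561. Endothelial markers, given above, summed to at most 1.329 CPM in a library. ROBO3, whose gene ends 2219 bases from that of ROBO4, was higher in 786-O-VHL (10.8 and 11.03 CPM against 14.3 and 19.1 CPM, log2 fold change 0.72, FDR 0.0001412), but without 786-O-VHL replicate 2 its FDR was 0.2276. ROBO1, the Robo gene with the highest level per kb of exon, did not pass the test, at 39.3 and 44.5 CPM in 786-O-Ctrl against 36.6 and 41.2 CPM in 786-O-VHL (log2 fold change -0.06 ± 0.0949). The libraries of ROBO1 overlapped between the groups. Summed over the Robo and UNC5 receptors, levels were 70.1 and 76.0 CPM in 786-O-Ctrl against 127.6 and 145.1 CPM in 786-O-VHL. Most of that difference came from UNC5B, at 15.8 and 16.4 CPM against 67.9 and 72.3 CPM, and not from the Robo genes.

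**Figure D2:**
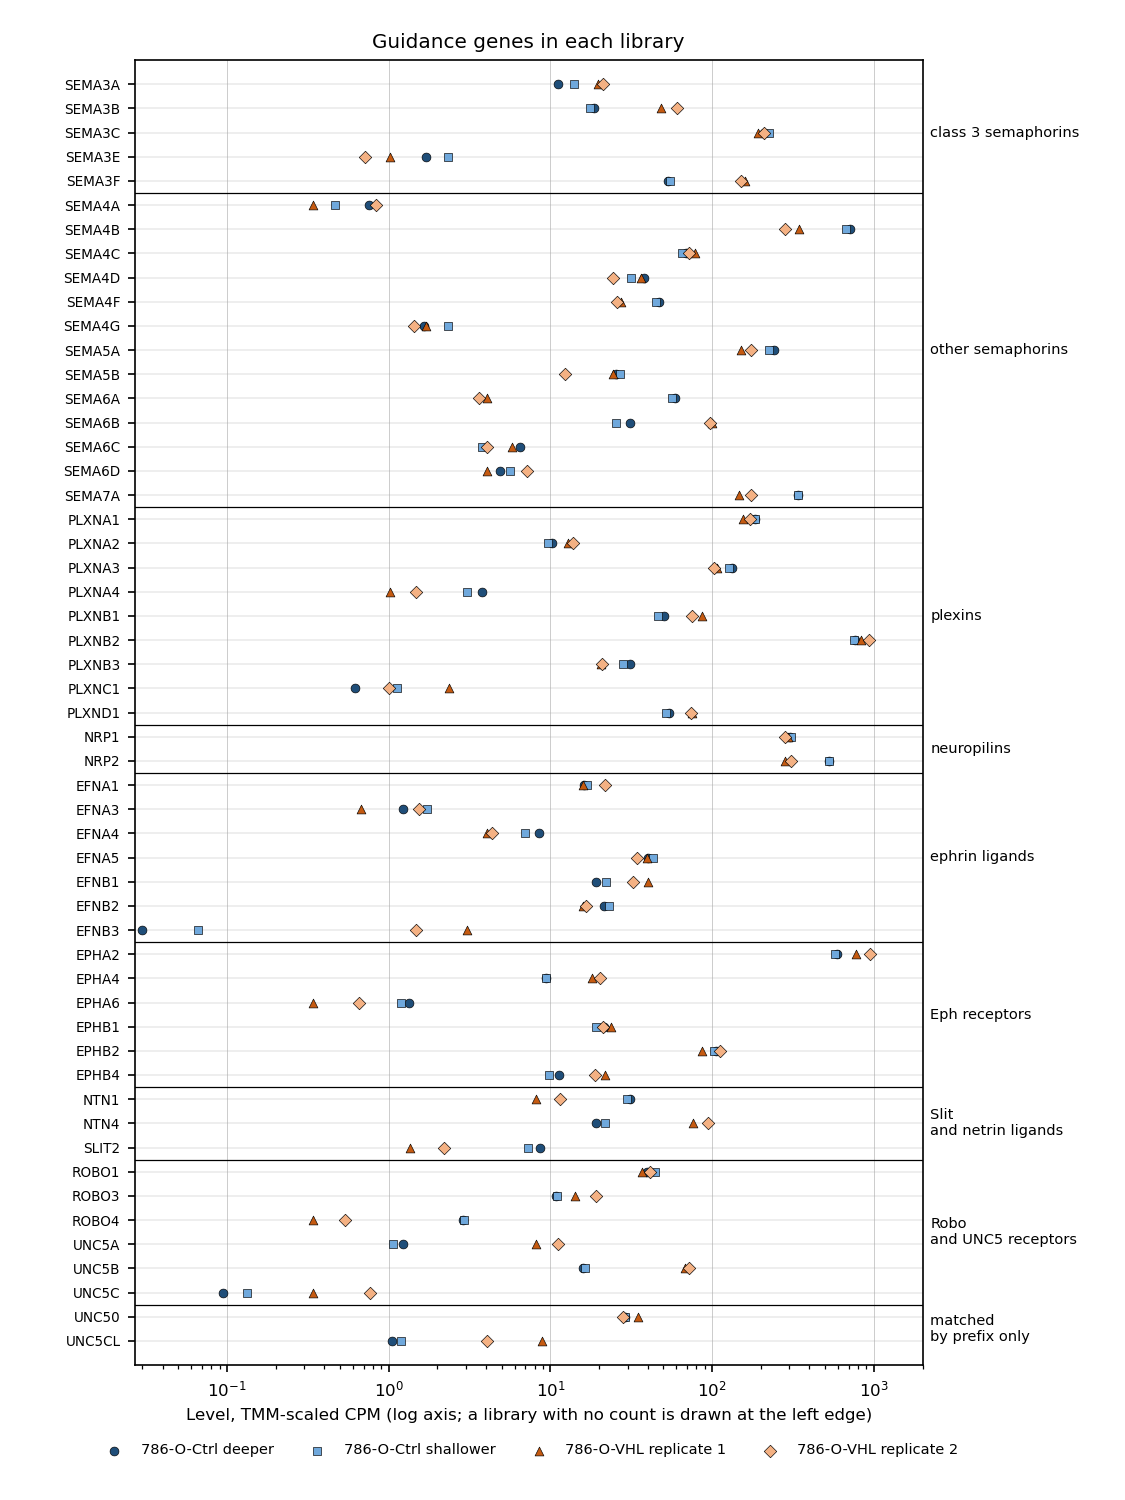
Level of each of the 53 guidance genes in each of the 4 libraries, as TMM-scaled CPM on a log axis, grouped by class. Blue points are the 786-O-Ctrl libraries and orange points the 786-O-VHL libraries; SEMA6A stands at 59.3 and 56.5 CPM in 786-O-Ctrl against 4.07 and 3.62 CPM in 786-O-VHL, and for SEMA3C the libraries of both groups overlap.

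SEMA6A showed the largest fall of any member. It encodes a transmembrane semaphorin that binds A-type plexins (chr5:115779251-115910519, minus strand). Its level was 59.3 and 56.5 CPM in 786-O-Ctrl against 4.07 and 3.62 CPM in 786-O-VHL, which is 15.7-fold lower (log2 fold change -3.97 ± 0.142, FDR 2.284e-19). The annotated antisense genes SEMA6A-AS1 and SEMA6A-AS2 overlap it, and since the use of strand in the counting is not known, reads of antisense RNA cannot be told apart from its own. SEMA6B, its close relative (chr19:4542605-4581788, minus strand), rose from 31.2 and 25.4 CPM to 99.4 and 97.0 CPM (log2 fold change 1.77 ± 0.0861, FDR 1.846e-16). Per kb of exon the mean CPM in 786-O-Ctrl were 5.31 for SEMA6A and 6.002 for SEMA6B, against 0.353 and 20.9 in 786-O-VHL. SEMA6C and SEMA6D did not pass the test, with log2 fold changes of -0.26 ± 0.275 and 0.31 ± 0.231.

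The 2 most abundant semaphorins per kb of exon, SEMA4B and SEMA7A, were both lower with VHL. SEMA4B, a transmembrane semaphorin (chr15:90703836-90772911, plus strand), read 713 and 674 CPM in 786-O-Ctrl against 343 and 283 CPM in 786-O-VHL (log2 fold change -1.17 ± 0.0723, FDR 3.721e-14). SEMA7A, which is anchored by a lipid and also binds integrins (chr15:74701630-74726299, minus strand), read 337.5 and 341.5 CPM against 147.6 and 175.1 CPM (log2 fold change -1.04 ± 0.0701, FDR 2.753e-13). Its fall was below 2-fold without 786-O-VHL replicate 1, at -0.96, and with library totals alone, at -0.90. By level per kb they held places 3 and 4 among the 53 members in both sublines, in an order that differed between the 786-O-VHL libraries. SEMA4F and SEMA5A were also lower (log2 fold changes -0.81 and -0.50, FDR 3.222e-08 and 4.985e-07). SEMA5B and SEMA4D were called lower as well (log2 fold changes -0.83 and -0.36), but in both cases replicate 2 of 786-O-VHL decided the call, and the FDR was 0.6505 and 0.8153 when it was left out, with SEMA4D then at a log2 fold change of 0.05. In all, 7 of the 13 semaphorins outside class 3 fell, 1 rose and 5 did not pass the test (all genes: 31.9% lower, 32.6% higher), and their summed level was 1577 and 1505 CPM in 786-O-Ctrl against 922.4 and 881.4 CPM in 786-O-VHL. Most of the difference in the sum came from SEMA4B and SEMA7A. The median log2 fold change of these 13 genes was -0.41, against 0.0168 for all genes.

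Of the secreted class 3 semaphorins in the table, 3 of 5 rose, 1 fell and 1 did not pass the test (all genes: 32.6% higher, 31.9% lower). SEMA3F, a ligand that binds NRP2 with preference (chr3:50192478-50226508, plus strand), read 53.3 and 55.1 CPM in 786-O-Ctrl against 160.8 and 151.3 CPM in 786-O-VHL (log2 fold change 1.51 ± 0.0686, FDR 4.2e-17). SEMA3B (chr3:50304990-50314977, plus strand), 78481 bases further along the same arm of chromosome 3, read 18.5 and 17.5 CPM against 48.5 and 61.1 CPM (log2 fold change 1.67 ± 0.106, FDR 6.66e-14). The 2 neighbors thus rose by a similar amount, and both have an annotated antisense gene, SEMA3F-AS1 and SEMA3B-AS1. SEMA3A rose by less (11.2 and 14.0 CPM against 19.7 and 21.0 CPM, log2 fold change 0.73, FDR 5.944e-05). SEMA3E, a ligand of PLXND1 next to SEMA3A on chromosome 7, was rare, with 36 and 35 counts in 786-O-Ctrl against 3 and 12 in 786-O-VHL, or 1.71 and 2.33 CPM against 1.02 and 0.713 CPM. Its log2 fold change was -1.37 ± 0.459 (edgeR FDR 0.0108), and the call did not hold with DESeq2 (FDR 0.1443) without the shallower 786-O-Ctrl library (FDR 0.1195) or without 786-O-VHL replicate 2 (FDR 0.378). SEMA3C had the highest mean level per kb of the class, although SEMA3F stood above it in 786-O-VHL replicate 1, and did not pass the test, with 209 and 224.3 CPM against 191.3 and 209.3 CPM (log2 fold change -0.10 ± 0.0662, FDR 0.2126). By level per kb SEMA3F moved from place 11 to place 6 among the members.

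Among the receptors of the semaphorins no plexin or neuropilin rose past 2-fold, where 10.0% of all genes did. With so few receptors this was not tested against that share. The median absolute log2 fold change was 0.488 over the 9 plexins and 0.772 over the 18 semaphorins, beside 0.428 over all genes, and these differences were not tested. NRP2, a coreceptor of class 3 semaphorins and of VEGF family members (chr2:206546714-206662857, plus strand), fell from 531 and 529 CPM to 283 and 307 CPM (log2 fold change -0.83 ± 0.0633, FDR 3.349e-12). NRP1 did not pass the test, at 303.5 and 307.0 CPM in 786-O-Ctrl against 293.4 and 280.7 CPM in 786-O-VHL (log2 fold change -0.10 ± 0.0621, FDR 0.1838). NRP2 was thus lower in both 786-O-VHL libraries while the SEMA3F level was higher in both. Of the 9 plexins, 4 rose, 3 fell and 2 did not pass the test, where 32.6% of all genes were higher and 31.9% lower. PLXNB2, the plexin with the highest level per kb (chr22:50713408-50746075, minus strand), read 767 and 751 CPM in 786-O-Ctrl against 836 and 928 CPM in 786-O-VHL, a small difference (log2 fold change 0.22 ± 0.062, FDR 0.002767). When either 786-O-Ctrl library was left out, the deeper and then the shallower, its FDR was 0.08535 and 0.1391. PLXNB1, the receptor of SEMA4D (chr3:48445261-48471495, minus strand), rose from 50.2 and 46.5 CPM to 86.2 and 74.6 CPM (log2 fold change 0.68 ± 0.0799, FDR 2.151e-08). PLXND1 and PLXNA2 also rose (log2 fold changes 0.49 and 0.44), and PLXNA3 and PLXNB3 fell (-0.33 and -0.51), all by less than 2-fold, and the call of PLXNA2 did not hold with DESeq2 (FDR 0.1908), without the deeper or the shallower 786-O-Ctrl library (FDR 0.0785 and 0.1474) or without 786-O-VHL replicate 2 (FDR 0.2826). PLXNA4, a partner of class 3 and class 6 semaphorins (chr7:131808099-132333447, minus strand), was the only plexin past 2-fold by edgeR, at 3.75 and 3.06 CPM in 786-O-Ctrl against 1.02 and 1.49 CPM in 786-O-VHL, the last 2 from 3 and 25 counts. Its log2 fold change was -1.29 ± 0.353 (FDR 0.002291), with an FDR of 0.05125 by DESeq2, 0.05997 without the deeper 786-O-Ctrl library and 0.05372 without 786-O-VHL replicate 2.

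Eph receptors were called higher or not called, and none was called lower by edgeR with all libraries. Without 786-O-VHL replicate 2, EPHB2 was called lower (log2 fold change -0.27, FDR 0.024). EPHA2, a receptor abundant in many carcinomas (chr1:16450832-16482564, minus strand), had the highest level per kb of all 53 members in both sublines, 140.6 CPM per kb in 786-O-Ctrl against 208.7 in 786-O-VHL. It read 592 and 572 CPM in 786-O-Ctrl against 777 and 952 CPM in 786-O-VHL (log2 fold change 0.58 ± 0.0707, FDR 3.965e-08). EPHA4, which binds both classes of ephrin (chr2:222282747-222438922, minus strand), rose from 9.36 and 9.44 CPM to 17.98 and 20.2 CPM (log2 fold change 1.06 ± 0.146, FDR 3.41e-07). It stood below 2-fold without 786-O-VHL replicate 2, at 0.93, and with libraries thinned to the shallowest, at 0.75. EPHB4, the main receptor of EFNB2, rose as well (log2 fold change 0.87, FDR 8.805e-06), although it overlaps SLC12A9 on the opposite strand, whose counts are far larger and fell (log2 fold change -0.35). EPHB1 and EPHB2 did not pass the test (log2 fold changes 0.10 ± 0.124 and 0.01 ± 0.0782). EPHA6, with 28 and 18 counts in 786-O-Ctrl against 1 and 11 in 786-O-VHL, did not pass it either (log2 fold change -1.07 ± 0.519, FDR 0.07319). Summed over the 6 receptors, levels were 741.0 and 713.9 CPM in 786-O-Ctrl against 927.1 and 1125 CPM in 786-O-VHL. Most of that difference came from EPHA2 alone.

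Among the 7 ephrins, 3 rose, 3 fell and 1 did not pass the test, beside 32.6% of all genes higher and 31.9% lower. EFNB3, a transmembrane ligand of EphB receptors and EPHA4 (chr17:7608520-7614690, plus strand), had 0 and 1 counts in 786-O-Ctrl against 9 and 25 counts in 786-O-VHL. The ratio of the pooled CPM was 62 with a 95% exact interval of 10.4 to 2520 for counting error, and the size of this difference is therefore poorly fixed. The fitted log2 fold change was 5.62, and it was 4.59 and 7.66 without the deeper or the shallower 786-O-Ctrl library. EFNB1 (chrX:68048864-68062003, plus strand), the ephrin with the highest mean level per kb over all 4 libraries, read 19.2 and 22.1 CPM in 786-O-Ctrl against 40.0 and 32.4 CPM in 786-O-VHL (log2 fold change 0.74 ± 0.118, FDR 3.365e-06). Both 786-O-VHL libraries lay above both 786-O-Ctrl libraries. In 786-O-Ctrl alone its mean of 6.25 CPM per kb stood below the 7.62 of EFNA1 and the 7.26 of EFNA5. EFNB2 was lower (log2 fold change -0.43, FDR 0.004484), with an FDR of 0.05938 by DESeq2, 0.07112 without the shallower 786-O-Ctrl library and 0.06655 without 786-O-VHL replicate 2. EFNA4, EFNA3 and EFNA1 lie in a row on chromosome 1, and a readthrough transcript of the first 2 is annotated. Their log2 fold changes were -0.87, -0.07 and 0.31. The call of EFNA4 did not hold without the deeper 786-O-Ctrl library (FDR 0.07055) or without 786-O-VHL replicate 2 (FDR 0.05964). The calls of EFNA1 and EFNA5 (-0.23) stood close to the threshold, with an FDR of 0.04783 and 0.0427 by edgeR and 0.4419 and 0.2495 by DESeq2. EFNA1 turned to a log2 fold change of -0.05 (FDR 0.8722) and EFNA5 came to -0.07 (FDR 0.7237) without 786-O-VHL replicate 2, and neither call held without either 786-O-Ctrl library. The summed level of the ephrins was 106.6 and 114.0 CPM in 786-O-Ctrl against 119.4 and 112.4 CPM in 786-O-VHL, with overlapping libraries.

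**Figure D3:**
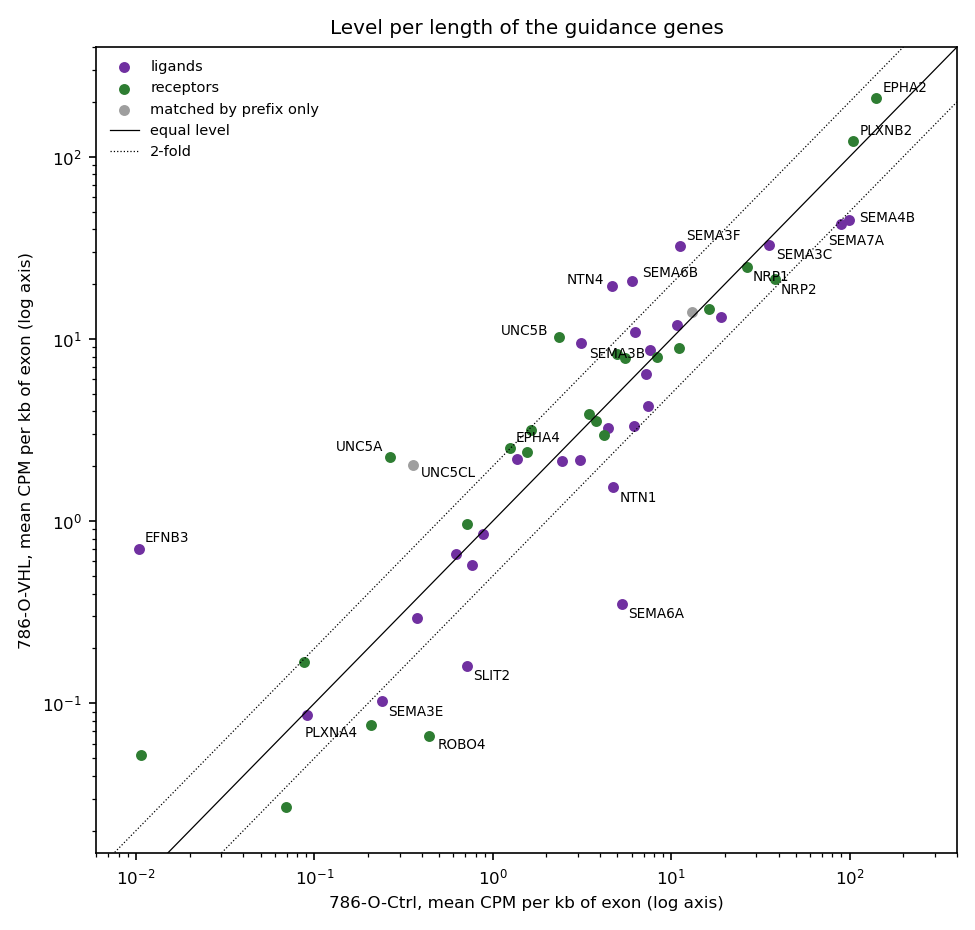
Mean level of the 53 guidance genes in 786-O-Ctrl (horizontal) and 786-O-VHL (vertical), in CPM per kb of exon on log axes, with 2 libraries per mean; the solid line marks equal levels and the dotted lines 2-fold. EPHA2 and PLXNB2 stand at the top right, SEMA6A lies furthest below the line among members above 1 CPM per kb in 786-O-Ctrl, and NTN4, UNC5B, SEMA3F, SEMA3B and SEMA6B lie above it.

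By level per kb, EPHA2, PLXNB2, SEMA4B and SEMA7A held places 1 to 4 by the group means in both sublines. The order of SEMA4B and SEMA7A in 786-O-VHL was not the same in both libraries, with 49.1 and 38.8 CPM per kb in replicate 1 and 40.5 and 46.1 in replicate 2. Further down the places changed more. NTN4 moved from place 25 in 786-O-Ctrl to place 10 in 786-O-VHL, UNC5B from 33 to 16, SEMA6A from 22 to 44 and NTN1 from 24 to 38. In 786-O-Ctrl the means of SEMA4B and PLXNB2 were 99.2 and 104.4 CPM per kb.

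The partner genes of each pathway, none of them a member, were read from the same fit. Of 14 tested partners of netrins, DCC and the UNC5 receptors, 9 rose, 3 fell and 2 did not pass the test, with a median log2 fold change of 0.425. FLRT1 and FLRT3, adhesion proteins of which FLRT3 binds UNC5B, rose by 3.22 ± 0.308 and 2.62 ± 0.38 on the log2 scale, FLRT1 from 0.807 and 0.997 CPM to 10.5 and 7.60 CPM and FLRT3 from 0.617 and 0.731 CPM to 5.09 and 3.86 CPM. With 13 and 11 counts there, the 786-O-Ctrl libraries alone would not have carried FLRT3 past the filter on low counts. Annotated genes overlap FLRT1 on both strands and FLRT3 on the opposite strand, so reads may be shared. The kinase FYN, which acts downstream of DCC, rose from 14.5 and 17.3 CPM to 61.7 and 64.3 CPM (log2 fold change 2.01). MAGED1, which binds the cytoplasmic part of UNC5A, fell from 281 and 275 CPM to 90.2 and 75.7 CPM (log2 fold change -1.80), and TRIM9 and MYO10, which bind DCC, fell with log2 fold changes of -1.40 and -0.30. DCC itself was not in the table. NEO1, which encodes the netrin receptor neogenin, read 58.6 and 59.8 CPM in 786-O-Ctrl against 85.5 and 80.2 CPM in 786-O-VHL (log2 fold change 0.465, edgeR FDR 2.462e-06).

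Of 19 tested partners of Slit and Robo, 9 rose, 4 fell and 6 did not pass the test (median 0.11). SRGAP3, a Robo-binding GTPase-activating protein, rose from 0.19 and 0.332 CPM to 5.77 and 7.48 CPM (log2 fold change 4.77 ± 0.404, FDR 3.339e-11), from 4 and 5 counts to 17 and 126. It passed the filter on low counts only through its 786-O-VHL libraries, where it is high. Annotated genes overlap it on both strands, so reads may be shared. ARHGAP4 and ARHGAP39 rose with log2 fold changes of 1.27 and 1.16, and MYO9B, CAP1 and GPC1 fell with -0.85, -0.82 and -0.38. Of 30 tested partners of semaphorins, plexins and neuropilins, 11 rose, 11 fell and 8 did not pass the test (median -0.0792). The largest fall was that of CFL1, the actin-severing protein cofilin, from 1322 and 1288 CPM to 460.0 and 506.1 CPM (log2 fold change -1.43 ± 0.0632), followed by DPYSL4 (-0.84) and FARP2 (-0.79). RND2, RND1 and FARP1 rose with 2.69, 1.15 and 0.89. RND2 had only 1 and 3 counts in 786-O-Ctrl against 3 and 12 in 786-O-VHL. RND1 had 13 and 11 against 3 and 27 (SE 0.475, edgeR FDR 0.035). RND2 passed the filter on low counts only through its 786-O-VHL libraries, and the 786-O-Ctrl libraries alone would not have carried RND1 past it. Of 24 tested partners of Ephs and ephrins, 12 rose, 5 fell and 7 did not pass the test (median 0.243). ANKS1B, GRB7 and CHN1 rose with 1.37, 1.28 and 1.17, and RIN1, ARHGEF16 and CRK fell with -0.87, -0.71 and -0.47. These counts stand beside 32.6% of all genes called higher and 31.9% called lower. The calls of partner genes were not checked under the alternative settings given below.

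**Figure D4:**
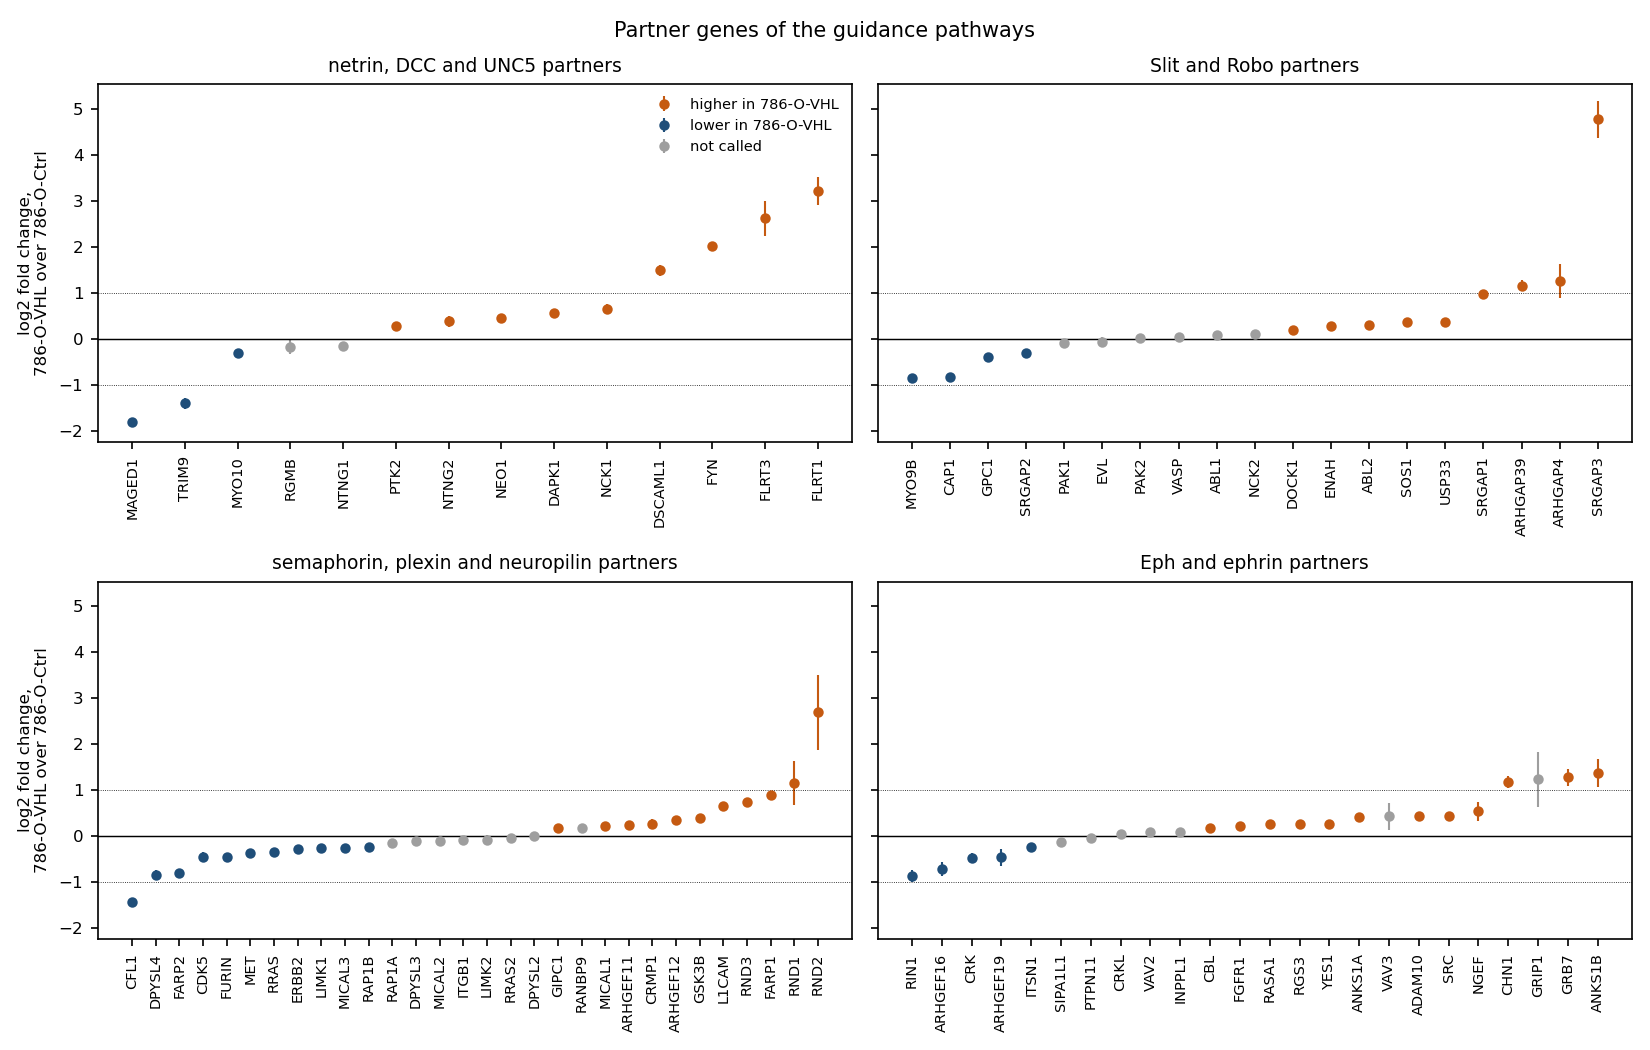
Log2 fold change of the tested partner genes in 786-O-VHL over 786-O-Ctrl (vertical axis), 1 panel per list, ordered within it; points are estimates from 2 libraries per group, bars are ± 1 SE, colors mark the call at FDR < 0.05 and dotted lines mark 2-fold. SRGAP3 at 4.77 and FLRT1 at 3.22 are the highest points, and MAGED1 at -1.80 and CFL1 at -1.43 the lowest. SRGAP3 passed the filter on low counts only through its 786-O-VHL libraries.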

How the data were processed

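The authors extracted total RNA, prepared Illumina TruSeq libraries, aligned reads to hg19 and deposited raw counts per gene, whole numbers without normalization, for 12912 genes. The submitters' processing notes name CASAVA and STAR. Which tool counted the reads, whether by strand, and on what annotation is not given in the sources used here. Both 786-O-Ctrl columns carry the same replicate number, so depth (deeper, shallower) names them. The spread within each group exceeded sampling noise (chi-square per degree of freedom 2.25 and 2.76).

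Testing used edgeR 4.0.16 (R 4.3.3). The 12335 genes that passed filterByExpr with its minimum count of 10 were scaled by TMM and tested with the quasi-likelihood F test, group being the only term, with Benjamini-Hochberg adjustment (FDR) over all genes tested. The SE is the absolute log2 fold change over the square root of F. The table has 75 duplicated symbols, and genes were handled by identifier. Coordinates, overlaps and merged exon length come from a GRCh37 annotation, which held 12749 of the genes and may differ from the one used for counting. The analysis was tested on simulated counts in which few genes changed, equally in both directions, and none of those was of low level. That test therefore does not cover members with few counts or changes in most genes.

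Alternatives were DESeq2 1.42.0, limma-voom (limma 3.58.1), RLE size factors, library totals alone, no filter, at least 10 counts in every library, thinning to the shallowest library and each library left out in turn. Members, classes, partner lists and markers were chosen with earlier results of these data known. Named members are those past 2-fold at FDR < 0.05 and, per class, the one with the highest level per kb and the called one with the smallest p. From a partner list, up to 3 genes each way are named by size of change, and NEO1 was added as a netrin receptor. Further members were named after their values were seen. ARHGEF5 and LHX1 were left out of their lists because each symbol has 2 identifiers.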

Additional observations from a re-analysis of the deposited data

How the results depend on the processing

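Over 11 alternatives the 23 named members gave 243 log2 fold changes, of which 232 kept both direction and side of the threshold, 8 lost the call, 1 gained it and 2 turned direction. EFNB3 had values in only 8 alternatives, PLXNA4, ROBO4 and SEMA3E in 9 and SLIT2 in 10, since they failed the filter elsewhere. EFNB3 could not be tested with at least 10 counts in every library, with libraries thinned or without 786-O-VHL replicate 2. The turns were both of SEMA3C, which was not called, at 0.0386 with library totals alone and 0.0211 with libraries thinned. Of the called members outside that list, EFNA1 (-0.05) and SEMA4D (0.05) turned direction without 786-O-VHL replicate 2. Lost calls of named members were those of PLXNA4, SEMA3E and PLXNB2, and the gain was SEMA3C without 786-O-VHL replicate 2 (FDR 0.04666). With at least 10 counts in every library, 4 in place of 8 members were lower past 2-fold and 1 in place of 2 past 4-fold, since fewer members were tested (42). With libraries thinned, 10 in place of 18 were lower at FDR < 0.05, 5 in place of 8 lower past 2-fold and 3 in place of 5 higher past 4-fold. DESeq2 called 17 higher and 12 lower members. Leaving out 1 library gave 15 to 20 higher and 14 to 19 lower members at FDR < 0.05, 8 to 10 and 6 to 8 past 2-fold, and 3 to 5 and 2 to 3 past 4-fold, with 3 without 786-O-VHL replicate 2; the lone library of the arm was assumed to vary like the others. Library totals alone moved the median log2 fold change of all genes to 0.15 and the share of calls that were higher from 50.5% to 62.1%. Without a filter UNC5C was called (log2 fold change 2.55, FDR 0.01402). No paired analysis was possible because both 786-O-Ctrl columns of the count table carry the same replicate number, so the fit with the replicate number as a term was not run. The depth of 786-O-VHL replicate 1 limits members under about 1.02 CPM there.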
